A study of Mus musculus with 7 samples.

Results

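The genes that build cholesterol and fatty acids were followed in mouse embryonic stem cells in libraries labelled as a light-induction course of the transcription factor Brn2. The set is a list of 31 genes chosen by name, of 20385 in the table, each represented by its transcript row with the highest mean value. It has 17 enzymes of sterol synthesis, 9 enzymes of fatty acid synthesis and desaturation, and 5 regulators or sterol-handling proteins. Of these, 28 genes had a mean value of at least 1 and entered the tests: 16 sterol enzymes, 7 fatty acid enzymes and all 5 regulators. All 7 libraries came from E14 cells, an established mouse embryonic stem cell line, that carried the Brn2-RFP GAVPO induction cassette and were kept in 2i media. GAVPO is a light-switchable transcription factor, and the cassette couples Brn2 to a red fluorescent protein. Light from an LED at 300 µW was given for 0, 2, 4, 6, 14, 24 or 48 h, and mRNA was sequenced once at each time, so no time has a replicate. Cells without the cassette, and cells kept dark for the later times, are not analysed here. The question of the series is how gene expression changes once Brn2 is induced, and light exposure, time in the plate and Brn2 cannot be told apart in these libraries.

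As background, cholesterol and fatty acids are both made from acetyl-CoA in the cytosol. Sterol synthesis runs through mevalonate, isoprenoid units, squalene and lanosterol to cholesterol, while fatty acid synthase makes palmitate, which elongases and desaturases modify. Many genes of both branches are targets of the SREBP transcription factors, encoded by Srebf1 and Srebf2, which are held in the endoplasmic reticulum by INSIG proteins when sterols are plentiful. SREBPs act on sterol regulatory elements together with NF-Y, which binds CCAAT boxes, and Sp1, which binds GC boxes.

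Promoter sequences are shown because the genes share known regulators and because the members described below were high in the same library. RefSeq windows of the 250 bases before the transcription start (GRCm38.p6) were matched for 24 of the 31 members; Scd1, Scd2, Fads1, Fdps, Fdft1, Sqle and Stard4 were not matched. Each motif was searched on both strands, and a gene was counted if any of its start sites held it. The CCAAT box (CCAAT, or ATTGG on the other strand) lay in 13 of 14 sterol enzyme genes, 2 of 6 fatty acid enzyme genes and 4 of 4 regulators, against 42.8% of the 5271 tested genes with a window. The GC box GGGCGG lay in 13 of 14, 3 of 6 and 4 of 4 genes of those lists, against 65.2% of tested genes. The sterol regulatory element letters TCACNCCAC were found in Hmgcs1, starting 137 bases before the start, and in no other matched member, against 1.18% of tested genes. The E-box CACGTG lay in Dhcr7, Hsd17b7, Sc5d and Insig1, against 10.7% of tested genes. No window differs between libraries, so these are descriptions of sequence and not of binding. In the windows below, written 5′ to 3′ on the gene's strand, capitals mark CCAAT or ATTGG. Lss (chr10:76531355-76531604, plus strand), which encodes lanosterol synthase, and Insig1 (chr5:28071162-28071411, plus strand) are shown as genes highest at 14 h with 1 CCAAT box each. Fasn (chr11:120824548-120824797, minus strand), for fatty acid synthase, is a fatty acid enzyme gene that was highest at 14 h and holds the box, as Acss2 does too, with 3 matches of which the last pair overlap. Fads2 (chr19:10101504-10101753, minus strand), for a fatty acid desaturase, is a gene highest at 48 h whose window holds no CCAAT match. It does hold GGGCGG. The windows shown are examples and do not stand for all members. Dhcr7, Ebp, Srebf1 and Tmem97 were also highest at 48 h and hold the CCAAT box, while Acat2 and Acly were highest at 14 h and lack it.
Lss: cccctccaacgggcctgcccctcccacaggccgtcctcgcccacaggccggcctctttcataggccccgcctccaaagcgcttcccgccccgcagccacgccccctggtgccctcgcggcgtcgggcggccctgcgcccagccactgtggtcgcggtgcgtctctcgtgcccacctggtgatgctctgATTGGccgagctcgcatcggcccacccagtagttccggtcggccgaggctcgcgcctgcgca
Insig1: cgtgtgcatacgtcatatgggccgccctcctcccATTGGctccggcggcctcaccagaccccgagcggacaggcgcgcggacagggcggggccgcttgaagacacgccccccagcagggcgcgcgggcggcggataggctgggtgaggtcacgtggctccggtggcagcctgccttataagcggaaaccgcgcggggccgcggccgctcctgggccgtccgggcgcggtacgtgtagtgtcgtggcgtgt
Fasn: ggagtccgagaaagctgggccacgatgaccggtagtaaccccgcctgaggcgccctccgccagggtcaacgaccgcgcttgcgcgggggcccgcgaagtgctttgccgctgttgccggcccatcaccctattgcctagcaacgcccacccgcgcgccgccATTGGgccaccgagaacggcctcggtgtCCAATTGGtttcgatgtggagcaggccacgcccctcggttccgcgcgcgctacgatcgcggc
Fads2: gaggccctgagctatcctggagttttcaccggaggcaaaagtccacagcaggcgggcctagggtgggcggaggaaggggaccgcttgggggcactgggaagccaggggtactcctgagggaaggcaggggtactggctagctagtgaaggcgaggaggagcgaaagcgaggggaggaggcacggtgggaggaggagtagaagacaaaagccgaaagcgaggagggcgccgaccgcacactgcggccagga

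Values are given as deposited. They behave as reads per kilobase of the gene's genomic span, introns included, scaled to library size, so they serve to compare libraries within a gene and not genes with each other. The depth implied by the values was 7.04 to 16.14 M reads per library, and the tested members had about 110 reads or more in every library, fewest for Pmvk. Pou3f2, the gene for Brn2, stood at 77.0, 36.9, 47.3, 96.2, 119, 41.3 and 7.19 at 0, 2, 4, 6, 14, 24 and 48 h, with no trend called by limma (adjusted p = 0.296). It was below its 0 h value at 2, 4, 24 and 48 h and above it at 6 and 14 h, which goes against a course of rising Brn2. A time named here is therefore the label of 1 library and says nothing of the amount of Brn2 RNA in it. The libraries labelled 0 h and 48 h also lay at opposite ends of a trend with GC content: the median deviation of the 10% of genes richest in GC was 0.41 (log2) at 48 h and -0.27 at 0 h. Values with this trend removed from each library are given beside the results. The median GC content was 51.3% for the tested members and 51.3% for all tested genes. Stem cell markers were abundant throughout, with a summed value of 1010 to 1740 over 8 genes. The summed value of 8 neuron markers was 106 at 48 h and 36.8 at 14 h, against 10.8 at 0 h. That of 5 neural progenitor markers was 9.31 at 48 h and 4.3 at 14 h, against 2.83 at 0 h. Most of its 48 h sum was Hes5 (5.52, against 0.0928 at 0 h), while Nes was at 1.89 against 2.03. Markers of fibroblasts, 7 genes, summed to 3.28 in the 48 h library and to 1.61 in that of 24 h, against 0.546 at 0 h. Most of the 48 h sum was Col1a2, a fibrillar collagen, at 2.16 against 0.045 at 0 h, which rose with time on reads (log2 change 9.31 ± 1.43, adjusted p = 0.008 by limma-voom). The other genes of that list did not follow it. Thy1 was highest at 6 h (1.39, against 1.05 at 48 h), and Col1a1 was lower at 48 h (0.0238) than at 0 h (0.0604). Col3a1, Lum, Dcn and Postn were at 0.0258 or less in every library. Markers of primitive endoderm and of fat or liver cells stayed at sums of at most 1.39 and 0.232. Each sum is weighted to its highest genes and serves to compare libraries, not lists.

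The tested members were high together at 14 h. All 28 (27 with quantile normalization) were higher at 14 h than at 0 h, against 51.6% of all tested genes, and 24 were higher at 14 h than in each of the 4 earlier libraries, against 26.4% of tested genes. At 24 h all 28 were again above 0 h (47.5% of tested genes), and at 48 h 21 of 28 were (50.2% of tested genes). At 2, 4 and 6 h the numbers above 0 h were 22, 14 and 18 of 28, where 45.6%, 43.4% and 54.6% of tested genes were. With the GC trend removed, 28, 27 and 23 of 28 were above 0 h at 14, 24 and 48 h, against 55%, 47.4% and 51.6% of tested genes. These counts were chosen after seeing the data, rest on 1 library at each time and carry no test, and every ratio shares the 0 h library. Set against the mean of the 0, 2, 4 and 6 h libraries instead, 27, 26 and 22 of 28 were higher at 14, 24 and 48 h, against 53.3%, 49.8% and 50.6% of tested genes. On the scale of value plus 1, no member passed 2-fold at 2, 4 or 6 h, where 1.88%, 1.21% and 2.48% of tested genes did; with pseudocount 0.1, 2 members did at 2 h, and with median centring 1 did. At 14, 24 and 48 h, 9, 4 and 8 members did, against 2.23%, 2.26% and 7.91%. The upward counts of members at these times were 3, 2 and 4 with pseudocount 5, and 14 at 14 h with pseudocount 0.1. No member was lower by 2-fold at any time. Few tested genes were: 77, 24, 49, 127, 106 and 346 of 6424 at 2, 4, 6, 14, 24 and 48 h. At 48 h 5 members passed 2-fold upward with the GC trend removed, and against the mean of the 4 early libraries 1 passed at 24 h and 5 at 48 h. In bulk RNA such as this, a change in the share of cells that use a gene and a change in RNA per cell cannot be told apart.

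**Figure D1:**
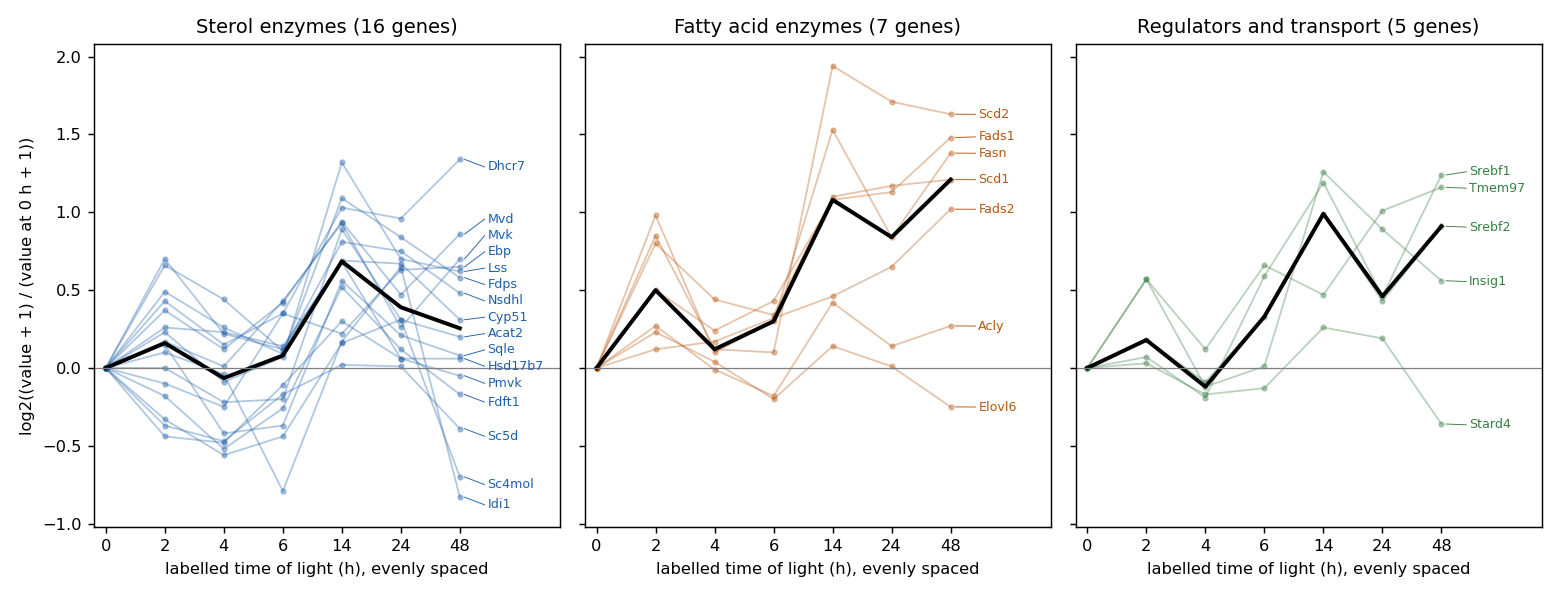
Each thin line is 1 tested gene of the 3 lists, as the log2 ratio of its deposited value plus 1 to that at 0 h (y axis), over the 7 libraries in order of labelled time (x axis, evenly spaced); the black line is the list's median. Sterol enzymes have a median of 0.68 at 14 h and 0.26 at 48 h, while fatty acid enzymes have 1.08 at 14 h and 1.21 at 48 h.

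Among the early sterol enzymes, which turn acetyl-CoA into isoprenoid units, most were highest at 14 h. Acat2, the cytosolic thiolase that starts the pathway, had values of 6.04, 6.02, 5.06, 5.12, 12, 7.7 and 7.08 at 0, 2, 4, 6, 14, 24 and 48 h. The 14 h library stood well above the rest, and the others lay between 5.06 and 7.7. Mevalonate kinase, Mvk, had 1.30, 1.59, 1.32, 2.11, 3.39, 1.76 and 2.74, with 14 h and 48 h the highest. Mevalonate diphosphate decarboxylase, Mvd, followed the same order at the top, with 1.39, 2.08, 1.60, 2.19, 3.58, 2.31 and 3.32. Phosphomevalonate kinase, Pmvk, was also highest at 14 h (2.51) but lowest at 48 h (1.13, against 1.2 at 0 h). Isopentenyl diphosphate isomerase, Idi1, departed from this pattern. It had 21.1, 22.7, 20.5, 11.8, 23.8, 33.7 and 11.4, highest at 24 h and lowest at 48 h. Farnesyl diphosphate synthase, Fdps, had 11.6, 16.7, 14.1, 12.4, 25.9, 21.5 and 17.8, and all 3 late libraries lay above all 4 early ones. Acat2 and Mvd showed the same split. How many of all tested genes show this split, given here and for genes below, was not counted. The 14 h library alone lay above each early one for 26.4% of tested genes. Fdps overlaps the predicted gene Gm43738, and Mvd overlaps Gm20388 on the other strand, so some of their reads may belong to those genes.

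The next enzymes build squalene and close it into lanosterol. Squalene synthase, Fdft1, had 7.34, 6.37, 4.80, 5.98, 11.0, 8.07 and 6.43 in order of time, and squalene epoxidase, Sqle, had 15.2, 16.9, 11.1, 11.5, 22.9, 17.7 and 16.1. Both were highest at 14 h and lowest at 4 h. Lanosterol synthase, Lss, had 1.80, 2.28, 1.62, 1.94, 5.99, 3.56 and 3.31, with the late libraries above the early ones. Its log2 ratio of 14 h to 0 h, 1.32, was the largest of the 16 tested sterol enzymes, or 1.27 with the GC trend removed. Fdft1 shares its position with Ctsb on the other strand, and the sources used here do not say whether counting used strand.

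The enzymes past lanosterol remove methyl groups and move bonds to give cholesterol. Cyp51, the lanosterol demethylase, had 3.76, 6.71, 4.56, 4.18, 6.68, 6.55 and 4.92, so that 2, 14 and 24 h lay close together at the top. It overlaps Akap9 on the other strand. Nsdhl, a sterol dehydrogenase that takes part in the same demethylation, had 1.06, 2.26, 1.79, 1.21, 2.59, 2.46 and 1.86, again with 2, 14 and 24 h highest. The methylsterol oxidase Sc4mol, listed as Msmo1, had 10.1, 7.83, 6.52, 7.21, 11.4, 12.8 and 5.85, highest at 24 h and lowest at 48 h. Hsd17b7, a ketosteroid reductase of the pathway, ranged from 1.62 at 4 h to 3.50 at 14 h, and the desaturase gene Sc5d from 2.58 at 4 h to 4.00 at 14 h, where it stood at 3.95 at 0 h. Ebp, the sterol isomerase, was highest at 48 h (5.96) and 24 h (5.86), against 3.43 at 0 h.

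Dhcr7, which encodes a reductase of the last steps to cholesterol, differed from most sterol enzymes in being highest at 48 h. It had 2.77, 2.52, 2.18, 3.83, 6.73, 6.34 and 8.58 in order of time, and the 3 late libraries did not overlap the 4 early ones. The share of tested genes with this split was not counted. The 48 h value of Dhcr7 was 2.54-fold its 0 h value on the scale of value plus 1. The log2 ratio was 1.34, or 1.17 with the GC trend removed. Dhcr7 was the only sterol enzyme past 2-fold at 48 h on that scale, against 7.91% of tested genes. At 14 h, 3 sterol enzymes passed 2-fold on it, Lss (2.5-fold), Fdps (2.13-fold) and Dhcr7 (2.05-fold), against 2.23% of tested genes. Without the added 1, Mvk, Mvd, Nsdhl and Pmvk also passed 2-fold at 14 h, and Mvk and Mvd at 48 h.

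**Figure D2:**
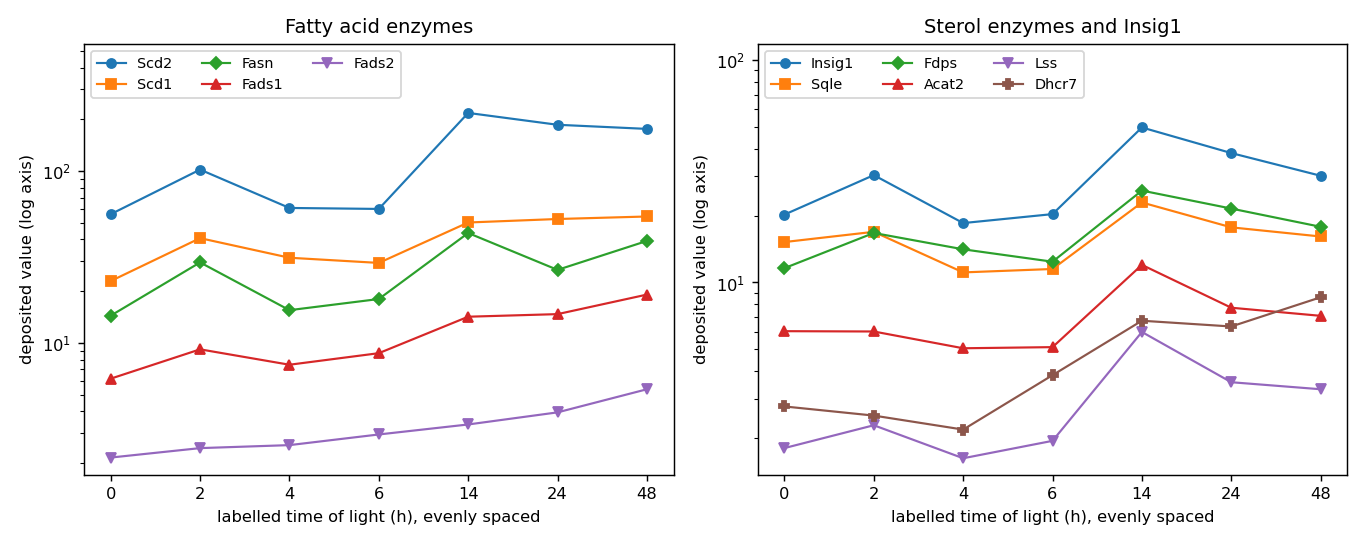
Deposited values (y axis, log scale) of 5 fatty acid enzymes and of 5 sterol enzymes with Insig1, at the 7 labelled times (x axis, evenly spaced), 1 point per library. Scd2 reaches 218 at 14 h against 56.1 at 0 h, Lss, Acat2 and Insig1 are lower at 24 h and 48 h than at 14 h, and Fads1, Fads2 and Dhcr7 are highest at 48 h.

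Fatty acid enzymes held the largest differences from 0 h. Scd2, a stearoyl-CoA desaturase, had 56.1, 102, 61.0, 60.2, 218, 186 and 176 in order of time, and its 14 h value was 3.84-fold its 0 h value on the scale of value plus 1. The 3 late libraries lay above all 4 early ones, a split whose share of tested genes was not counted. Its paralog Scd1 had 22.9, 40.7, 31.3, 29.2, 50.2, 52.6 and 54.4, also with no overlap between late and early libraries, and the sources used here do not say how reads shared by the paralogs were assigned. Per kilobase of exon, where genes can be compared, Scd2 averaged 297 and Scd1 110 over the 7 libraries, while the lowest tested member, Sc5d, averaged 8.89. Fatty acid synthase, Fasn, had 14.4, 29.4, 15.5, 18, 43.6, 26.6 and 39.2. It was highest at 14 h and 48 h, and its 2 h value exceeded its 24 h value. Fasn is rich in GC (57.9%), and its log2 ratio of 48 h to 0 h was 1.38 as deposited and 0.74 with the GC trend removed.

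The desaturases of polyunsaturated fatty acids were both highest at 48 h. Fads1 had 6.19, 9.17, 7.46, 8.71, 14.2, 14.7 and 19.1, and the late libraries again lay above the early ones. Fads2 had 2.15, 2.44, 2.54, 2.93, 3.35, 3.94 and 5.37, each library higher than the one before it. Acly, which supplies cytosolic acetyl-CoA from citrate, stayed between 3.82 at 6 h and 6.30 at 14 h. The elongase Elovl6 stayed between 2.26 at 48 h and 3.54 at 2 h, where it stood at 2.86 at 0 h. With a threshold of 2-fold against 0 h on the scale of value plus 1, 4 fatty acid enzymes passed at 14 h (Fasn, Scd1, Scd2 and Fads1), against 2.23% of tested genes, and 3 at 24 h (Scd1, Scd2 and Fads1), against 2.26%. At 48 h 5 passed (those of 14 h and Fads2), against 7.91% of tested genes, or 3 with the GC trend removed (Scd1, Scd2 and Fads1). All 7 were above 0 h as early as 2 h, with a median log2 ratio of 0.50, against 10 of 16 sterol enzymes with a median of 0.16 and 45.6% of all tested genes. By 4 h the median ratio of the fatty acid enzymes was 0.12.

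The regulators include both genes for SREBP proteins. Srebf1 had 4.58, 4.86, 3.87, 7.37, 11.7, 6.70 and 12.2 in order of time, and Srebf2 had 3.65, 4.26, 3.36, 4.86, 8.26, 5.25 and 7.75. For Srebf2, though not for Srebf1, the late libraries lay above the early ones. Both were high at 14 h and 48 h with a lower 24 h library, and both are rich in GC (58.4% for Srebf1, which overlaps Rai1 on the other strand, and 57.9% for Srebf2). Removing the GC trend gave log2 ratios of 48 h to 0 h of 0.57 for Srebf1 and 0.27 for Srebf2, in place of 1.24 and 0.91. Those of 14 h to 0 h were 0.85 and 0.68, in place of 1.19 and 0.99. Insig1, which retains SREBPs in the endoplasmic reticulum and is itself an SREBP target, had 20.2, 30.4, 18.5, 20.3, 49.8, 38.2 and 30.2. It was highest at 14 h, 2.40-fold its 0 h value on the scale of value plus 1. The sterol carrier Stard4 stayed between 4.24 at 48 h and 7.09 at 14 h. Tmem97, the sigma-2 receptor, which takes part in cholesterol handling, had 9.26, 14.3, 10.1, 15.3, 13.2, 19.7 and 21.9, highest at 48 h and with its 14 h value below those of 2 h and 6 h.

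The members were also described by the library in which each was highest. The 14 h library was the highest for 17 of 28 members, against 15.3% of all tested genes. By list these were 11 of 16 sterol enzymes, 3 of 7 fatty acid enzymes (Acly, Fasn and Scd2) and 3 of 5 regulators (Srebf2, Insig1 and Stard4). With the GC trend removed the count was 20 of 28, against 20.2% of tested genes. The 48 h library was the highest for 7 members, Ebp, Dhcr7, Scd1, Fads1, Fads2, Srebf1 and Tmem97, a share close to the 24.6% of all tested genes. This way of counting was chosen after the time courses had been seen, and no test was made of it.

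**Figure D3:**
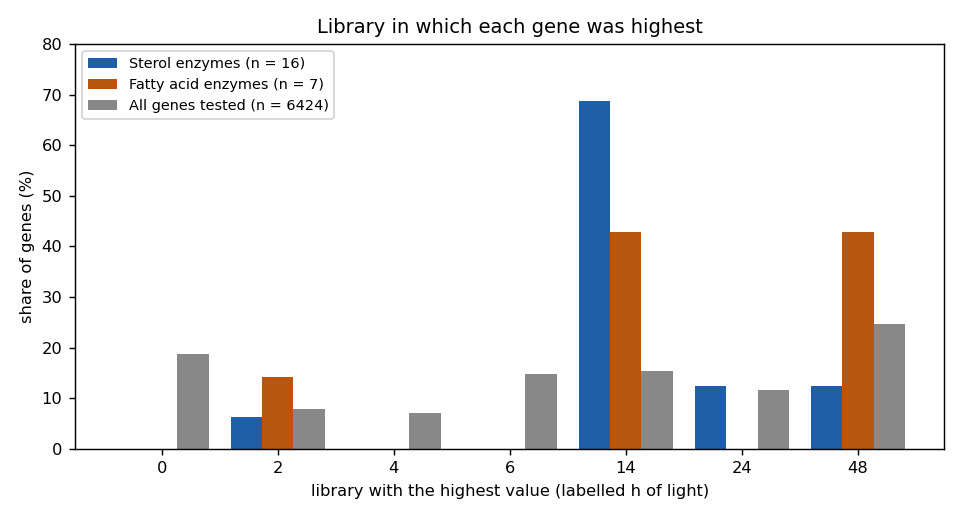
Share of genes (y axis, percent) whose highest value lay in the library of each labelled time (x axis), for sterol enzymes, fatty acid enzymes and all tested genes. For sterol enzymes the bar at 14 h stands for 11 of 16 genes, while for fatty acid enzymes 14 h and 48 h hold 3 of 7 genes each.

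The arms differed in their values after 14 h. At 48 h, 14 of 16 sterol enzymes were below their 14 h value, all but Ebp and Dhcr7, with a median log2 ratio of 48 h to 14 h of -0.44. Of the fatty acid enzymes 4 of 7 were below, with a median of -0.14, and 53.2% of all tested genes were below. With the GC trend removed the numbers were 13 of 16 (median -0.51) and 4 of 7 (median -0.06), against 51.5% of tested genes. Against 0 h, the median log2 ratio at 48 h was 1.21 for fatty acid enzymes and 0.26 for sterol enzymes, or 0.74 and 0.32 with the GC trend removed. At 48 h 5 sterol enzymes stood below 0 h, Pmvk, Idi1, Fdft1, Sc4mol and Sc5d, as did Elovl6 and Stard4. Idi1 (0.561-fold) and Sc4mol (0.616-fold) were the lowest, on the scale of value plus 1. With the GC trend removed 11 of 16 sterol enzymes were above 0 h at 48 h, as many as without, but not the same genes. Idi1, Sc4mol, Sc5d, Elovl6 and Stard4 have the GC contents 41.9%, 45.2%, 42.9%, 44% and 43.9%, and once the GC trend was removed their log2 ratios of 48 h to 0 h were -0.01, -0.17, 0.35, 0.39 and 0.28. Those of Mvk, Pmvk and Fdft1 went the other way, to -0.05, -0.62 and -0.26, where they were 0.70, -0.05 and -0.17 as deposited. The members of an arm are not replicates and each time is 1 library, so the difference between the arms has no test.

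**Figure D4:**
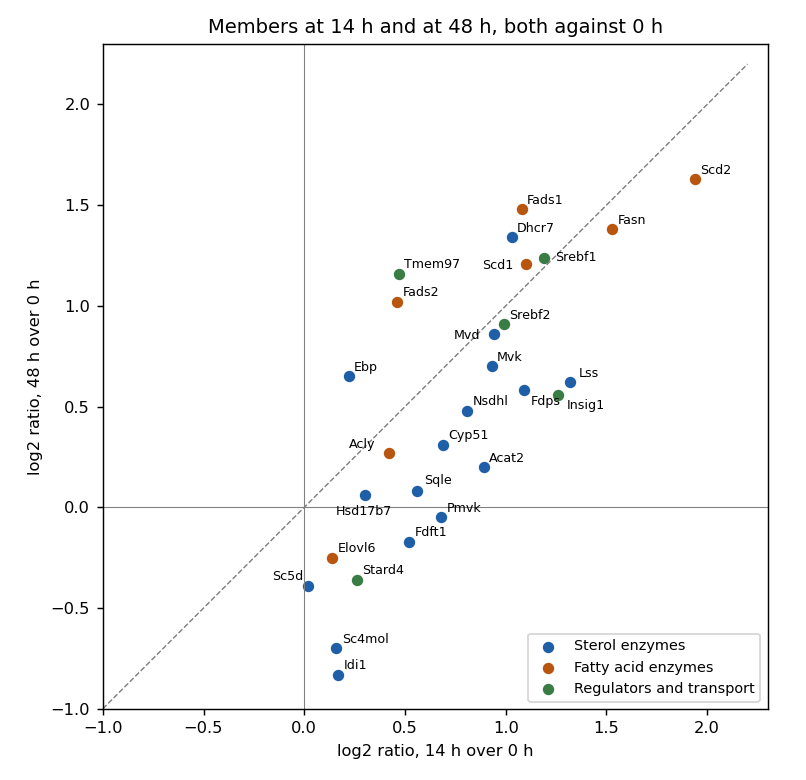
Each point is 1 tested member, with its log2 ratio of 14 h to 0 h (x axis) and of 48 h to 0 h (y axis), both of deposited values plus 1; the dashed line marks equal ratios. All points lie right of 0 at 14 h, sterol enzymes other than Ebp and Dhcr7 lie below the dashed line, and Idi1, Sc4mol, Sc5d, Elovl6 and Stard4 lie below 0 at 48 h together with Fdft1 and Pmvk.

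Whether any member changed steadily with time was asked by a straight-line fit over the 7 libraries of log2 value plus 1 on log2 hours plus 1 (limma, Benjamini-Hochberg adjustment over 6424 genes). None of the 28 members passed at an adjusted p under 0.05; over all genes 0.296% passed upward and 0.0623% downward. Fads1 came closest, with a fitted log2 change from 0 to 48 h of 1.5 ± 0.27 (SE, adjusted p = 0.052), followed by Dhcr7 with 1.63 ± 0.35 (adjusted p = 0.066) and Fads2 with 0.99 ± 0.22 (adjusted p = 0.071). Scd1 had 1.2 ± 0.32 (adjusted p = 0.096), Scd2 1.97 ± 0.54 (adjusted p = 0.102) and Tmem97 1.07 ± 0.30 (adjusted p = 0.109). The fitted change was above 0 for 23 of 28 members, against 50.4% of tested genes, and 14 of 28 had an unadjusted p under 0.05 with a positive change, against 11.6%. None had one with a negative change, as 9.92% of tested genes did. The median fitted change was 1.2 for fatty acid enzymes, 0.97 for regulators, 0.45 for sterol enzymes and 0.01 for all tested genes. With the GC trend removed these medians were 0.80, 0.80, 0.53 and 0.03, so the gap between the enzyme arms was 0.27 in place of 0.75, and 27 of 28 changes were above 0 (53.1% of tested genes), all but Pmvk. None passed in that fit either, in which 0.14% of tested genes were called. A fit with an added squared term, chosen after seeing the data because many members were highest at 14 h, called none of the members (0.872% of tested genes by the F test), and 9 members had an unadjusted p under 0.05 in it, against 12.1% of tested genes.

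**Figure D5:**
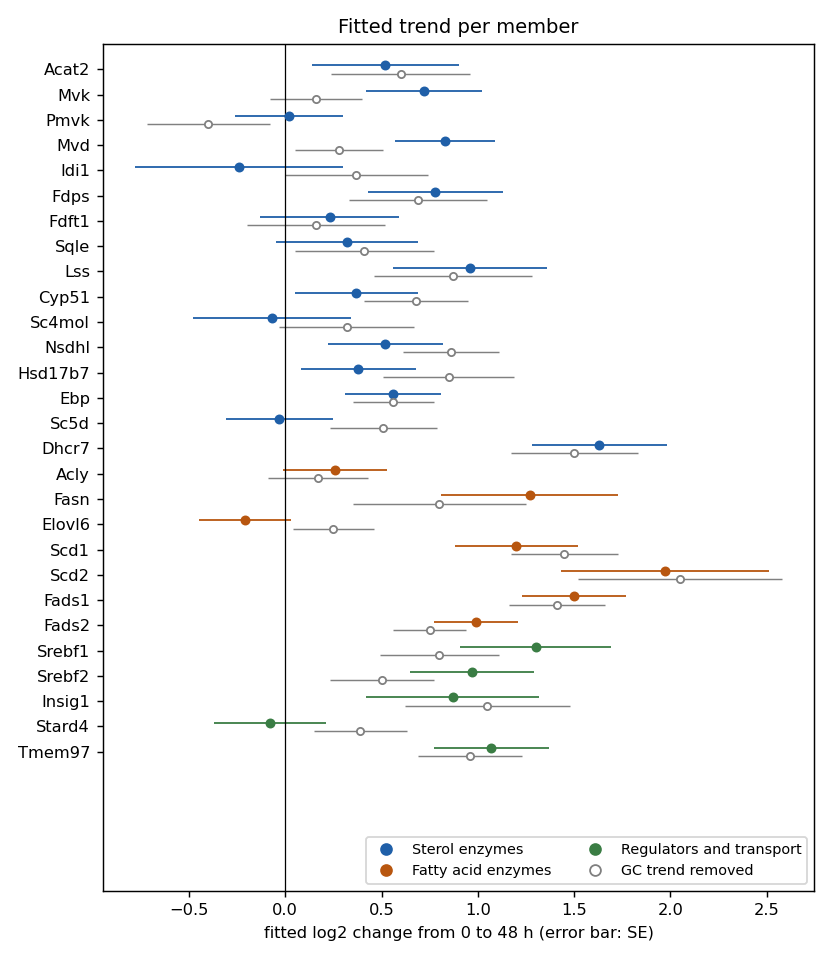
Fitted log2 change from 0 to 48 h (x axis) of each tested member (y axis, in pathway order), with its SE as error bar, from values as deposited (filled) and with the GC trend of each library removed (open). Fads1, Dhcr7 and Fads2 have the smallest SE relative to their change, and no member passes at an adjusted p under 0.05.

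On approximate read numbers recovered from the values, which let 30 of the 31 members be tested among 13542 genes, 3 members rose with time, against 2.22% of genes. By limma-voom the fitted log2 changes were 1.65 ± 0.30 for Fads1 (adjusted p = 0.017), 2.01 ± 0.41 for Dhcr7 (adjusted p = 0.028) and 1.30 ± 0.27 for Fads2 (adjusted p = 0.031). With the GC trend removed, Fads1 (adjusted p = 0.024), Dhcr7 (adjusted p = 0.043) and Scd1 (adjusted p = 0.024) were called, against 1.95% of genes called up, and Fads2 was not (adjusted p = 0.058). No member fell in either form of this fit, and 0.805% of genes fell in the fit as first made. The neuron, neural progenitor and fibroblast marker sums were also highest at 48 h, as were Fads1, Fads2, Scd1 and Dhcr7. The part of those cell types in these values was not tested.

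Outside the tests were 3 members. Hmgcs1, the synthase that makes HMG-CoA, is listed at 0 in all 7 libraries. It lies in a run of 9 neighbouring genes, from Ccl28 to Tcstv3 at the end of chromosome 13, that are all listed at 0, Zfp131 among them, so the 0 cannot be read as absent expression. Acss2, which makes acetyl-CoA from acetate, had 0.597, 0.499, 0.480, 0.610, 1.0, 0.636 and 0.708 in order of time. Acaca, the acetyl-CoA carboxylase that commits carbon to fatty acids, had 0.382, 0.512, 0.360, 0.322, 0.662, 0.459 and 0.405. Both were highest at 14 h, at levels below the mean value of 1 that the test required. Long introns lower the deposited value of Acaca, whose span is 206208 bases. Acss2 overlaps Ggt7 and Gss, and Acaca overlaps the predicted gene Gm11437.

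Other genes of the same pathways were read from the same fit. Of 9 further sterol pathway genes 7 were tested, 3 had a positive fitted change and 0 passed in either direction by limma (2 with an unadjusted p under 0.05). Lbr, a lamin receptor with sterol reductase activity, stayed between 8.35 and 12.1. It overlaps Dnah14 on the other strand. Tm7sf2, a related sterol reductase of the endoplasmic reticulum, was named after its values were seen. It had 1.86, 2.3, 2.48, 4.15, 8.67, 5.95 and 6.85, and its fitted change of 1.79 ± 0.36 did not pass (adjusted p = 0.060). On reads it was called (2.16 ± 0.46, adjusted p = 0.033 by limma-voom), but not with the GC trend removed (adjusted p = 0.085). Of the 9 genes tested on reads it was the 1 called, against 2.22% of genes called up. Tm7sf2 overlaps Vps51, so some of its reads may belong to that gene.

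Of 11 genes of the SREBP machinery and sterol uptake 4 were tested, all 4 had a positive fitted change and 0 passed by limma (1 with an unadjusted p under 0.05). Npc2, which carries cholesterol out of lysosomes, stayed between 8.99 at 14 h and 13.7 at 6 h. Of 7 genes of LXR signalling and sterol efflux 2 were tested, and neither the oxysterol receptor Nr1h2 (adjusted p = 0.307) nor Apoe (adjusted p = 0.470) passed. Apoe, a lipoprotein component, was highest at 6 h, at 214 against 95.8 at 0 h. Of 17 further genes of fatty acid and lipid synthesis 6 were tested, 5 had a positive fitted change and 0 passed by limma (3 with an unadjusted p under 0.05). The citrate carrier Slc25a1 had 42.1, 63.3, 56.4, 66.5, 82.1, 59.3 and 92.8, high at 14 h and 48 h like Srebf1, Srebf2 and Fasn. Like them it is rich in GC (59.1%). Its log2 ratio of 48 h to 0 h was 1.12 as deposited and 0.40 with the GC trend removed. Of 10 genes of fatty acid oxidation 8 were tested, 3 had a positive fitted change, the median change was -0.18 and 0 passed by limma (1 with an unadjusted p under 0.05, downward). At 14 h 4 of these 8 were above 0 h, where 51.6% of all tested genes were.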

How the data were processed

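Messenger RNA from 7 libraries, 1 per labelled time, was prepared with an RNeasy kit and a Lexogen SENSE kit, per the labels' protocols. Reads were aligned with Bowtie2 to mm9, per the submitters' processing notes; the sources used here do not give its version, the counting or the use of strand. The deposited table holds 30673 rows with 1 value per transcript and library and names no unit. Multiplied by genomic span and a library factor, 79.9% to 81.1% of values of 2 to 20 reads fell within 0.1 of a whole number, against 21.0% to 22.7% with exonic length and 20.0% by chance, so the deposited values were treated as reads per kilobase of span, and depth and read numbers derived from them are approximate. Spans came from GRCm38 annotation and not from mm9.

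Left out were 3320 transcription start site rows, all at 0, and 695 further placements. By accession 26359 rows were named, giving 20385 genes; where a gene had several rows (3683 genes) the row of highest mean was used. Trends were fitted with limma 3.58.1 in R 4.3.3 (lmFit, eBayes with trend) with log2(value + 1) regressed on log2(hours + 1), two-sided, for 6424 genes with a mean of at least 1 (11492 genes above 0 lay under it), with 5 residual degrees of freedom. Of the tests planned, that for normalized values was taken because the values are not counts. Fold changes on this scale understate the change of low genes. Time points were treated as independent samples of a line, so p-values measure the spread of single libraries about it. Each later library was set against 0 h as a ratio, without a test. GC trends were natural splines with 5 degrees of freedom over 2449 genes whose mean was 5 or more, and 99.6% of tested genes had a known GC content. The limma-voom fit used genes with at least 10 recovered reads in at least 3 libraries. Alternatives were another normalization, pseudocount, filter, time scale, transcript row, reference and arm definition, and each library left out. All scripts that test were tested on simulated data with known changes. The members and lists were chosen with earlier results of these data known. Every member is named; from each other list, the 4 genes (or fewer) with the largest fitted changes among those of mean 5 or more are named, and some genes of these lists are not reported here. Genes that overlap another gene are marked from GRCm38 annotation.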

Additional observations from a re-analysis of the deposited data

How the results depend on the processing

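No paired analysis was possible because each time has 1 library and the labels carry no replicate number. With 1 library per time, 1 library decides each ratio. Under the alternatives run, 22 to 29 tested members, or 14 of the 17 with a mean of at least 5, had a positive fitted change. The number of genes called with time, 23 over all genes and 0 members as reported, depended strongly on settings. Over all genes it was 1 with quantile normalization, 43 with pseudocount 0.1, 0 with pseudocount 5 or no filter, 190 with hours not logged, 55 with ranked time, 9 with the GC trend removed, 36 with summed rows, 56 with the added squared term, and 410 or, with the GC trend removed, 333 on reads. With libraries left out in turn it was 1 to 76. Of the members it called 1 with pseudocount 0.1, a mean of at least 5 or summed rows (Fads1 each time), 3 with hours not logged (Fads1, Fads2 and Dhcr7), 2 with ranked time (Fads1 and Dhcr7), 3 on reads with or without the GC trend, and 0 to 1 with a library left out (Dhcr7 without 0 h, adjusted p = 0.034 by limma).

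With the GC trend removed, the median fitted change of fatty acid enzymes was 0.80, and 0.27 above that of sterol enzymes. On reads with that trend also removed, these values were 0.77 and 0.19. On reads with the trend kept, the medians were 1.23 for fatty acid enzymes and 0.53 for sterol enzymes. With libraries left out in turn the fatty acid median was 1.10 to 1.38, the sterol median 0.31 to 0.60 and the gap 0.61 to 0.84, so fatty acid enzymes had the larger median under all of these. Members past 2-fold against 0 h numbered 9, 4 and 8 at 14, 24 and 48 h as reported. They numbered 14 at 14 h and 2 at 2 h with pseudocount 0.1, 3, 2 and 4 at 14, 24 and 48 h with pseudocount 5, 1 at 2 h with median centring, 5 at 48 h with the GC trend removed, and 1 at 24 h and 5 at 48 h against the mean of the 4 early libraries. Among genes with a mean of at least 5, the 14 h library was highest for 10 of 17 members and 4 of 7 sterol enzymes. Low members limit what this depth shows: Pmvk had about 110 to 226 reads per library.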
